A study of Homo sapiens with 12 samples.

Results

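Small leucine-rich proteoglycans were followed as 7 genes, LUM, DCN, BGN, OGN, FMOD, PRELP and ASPN, among the 58302 genes counted by RNA-seq in H1 human embryonic stem cell derivatives. The 7 genes were chosen by name from earlier results on these same samples, so their levels and fold changes are a description and carry no test. There were 6 groups of 2 samples. WT and dKO neural progenitor cells (NPCs) were sampled at passage 2 and at passage 4, and WT-D28 and dKO-D28 cells were sampled after 28 days of random differentiation. H1 is an established human embryonic stem cell line. The dKO line, with the genotype UTX and JMJD3 knockout, carries deletions of the catalytic parts of 2 histone H3K27 demethylases, UTX (gene KDM6A) and JMJD3 (gene KDM6B), and was derived from drug-selected clones. How many clones supplied the RNA is not given in the sources used here. WT samples are unedited H1. All 6 groups passed through the same neural induction, with the TGF-beta receptor inhibitor SB431542 and the BMP receptor inhibitor dorsomorphin, and rosettes were then picked and grown with bFGF and EGF. The day 28 cells came from NPCs at passage 2 that were moved to medium with GDNF, BDNF and cAMP. The labels name passage 4 only, and passage 2 comes from the study's methods. Nothing in the labels says whether the 2 samples of a group are separate cultures, so errors measure only the spread between them.

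These proteoglycans are secreted proteins with a short core of leucine-rich repeats. Decorin (DCN) and biglycan (BGN) carry chondroitin or dermatan sulfate chains, while lumican (LUM) and fibromodulin (FMOD) carry keratan sulfate. Most of them bind fibrillar collagen and set the spacing of its fibrils, and decorin and biglycan also bind TGF-beta and several cell surface receptors. They are mainly products of fibroblasts and other connective tissue cells, and in the brain they are known from the meninges and the vessel wall.

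The family is spread over a few loci, given here in hg38 coordinates of GENCODE v44. LUM (chr12:91102629-91111494, minus strand) and DCN (chr12:91140484-91183217, minus strand) were 29.0 kb apart in a row with EPYC and KERA. OGN (chr9:92383268-92404696) and ASPN (chr9:92456205-92482506) lay with OMD and ECM2 on the minus strand of chromosome 9, overlapping CENPP on the other strand but sharing 0 exonic bases with it. FMOD (chr1:203340628-203351758, minus strand) and PRELP (chr1:203475806-203491352, plus strand) were 124 kb apart, with OPTC 2.80 kb beyond PRELP. BGN (chrX:153494980-153509546, plus strand) overlapped HAUS7 on the other strand, again with 0 exonic bases shared. No other protein-coding gene lay wholly between neighbours of these rows.

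BGN and PRELP moved in opposite directions between dKO-D28 and WT-D28 cells, as described below, and the 250 bases before their RefSeq start sites (GRCh38.p14) are shown for that reason, 5′ to 3′ on the gene's strand, with CG dinucleotides in capitals.
BGN, chrX:153494730-153494979, plus strand: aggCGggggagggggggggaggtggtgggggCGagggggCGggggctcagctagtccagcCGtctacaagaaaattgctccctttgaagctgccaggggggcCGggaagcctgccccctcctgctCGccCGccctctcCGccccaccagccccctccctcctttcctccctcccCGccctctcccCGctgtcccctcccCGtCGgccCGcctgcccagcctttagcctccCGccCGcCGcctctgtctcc
PRELP, chr1:203475556-203475805, plus strand: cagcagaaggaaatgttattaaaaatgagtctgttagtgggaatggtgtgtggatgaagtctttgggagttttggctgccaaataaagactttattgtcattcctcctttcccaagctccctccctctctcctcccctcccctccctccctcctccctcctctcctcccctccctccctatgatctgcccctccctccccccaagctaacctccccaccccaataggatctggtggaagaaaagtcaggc
The BGN window held 16 CG dinucleotides at 74.0% G+C, and the PRELP window held 0 at 52.8% G+C. Over 35116 RefSeq promoters of the same length the median was 11 CG dinucleotides. FMOD had 9, ASPN 3 and OGN 0 in both of its entries. LUM and DCN had no promoter entry. Both strands were searched for the TATA box letters TATAAA, for the letters CCAAT, for the GC box letters GGGCGG and for the AP-1 letters TGANTCA. The BGN window held GGGCGG at 5 places, 1 on the plus and 4 on the minus strand, and the PRELP window held CCAAT once, starting 31 bases before the start site. Of all promoters, 42.6% held the GC box letters, 32.0% held CCAAT, 10.7% held the TATA box letters and 6.57% held the AP-1 letters. These matches describe letters in a window and do not show that a factor binds there.

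Total counts were 756942 to 1438807 per sample at passage 2, 3174410 to 4220037 at passage 4 and 4082248 to 10601172 at day 28. Levels are CPM, counts scaled to a common library size with TMM factors. A floor of 3 counts corresponded to 0.298 to 3.85 CPM per sample, and all intervals and floors cover counting error only. The 2 dKO-D28 samples stood apart from each other, with a chi-square of 11.3 per degree of freedom between them against 1.57 to 2.72 in the other 5 groups. Depth followed passage and day, and at day 28 also genotype, with 8813561 and 10601172 counts in WT and 4082248 and 5214431 in dKO samples. At passage 2 the WT samples, at 756942 and 1328252, were both below the dKO samples, at 1337776 and 1438807. A batch that followed passage, day or genotype cannot be told apart from them. KDM6A lay at 38.3 to 39.1 CPM in dKO and 53.5 to 60.3 CPM in WT NPCs at passage 2, at 27.3 to 31.4 and 49.8 to 53.3 CPM at passage 4, and at 31.9 and 58.4 CPM in dKO-D28 against 43.7 and 48.4 CPM in WT-D28 cells, where the groups overlapped. KDM6B was higher in dKO NPCs at passage 4, by 0.61 ± 0.11 on the log2 scale (adjusted p = 0.000220), and lower in dKO-D28 cells, at -0.40 ± 0.10 (adjusted p = 0.00387). Neither gene passed the fold threshold in a comparison of dKO with WT. Because only the catalytic part was deleted, reads over the whole gene check the genotype poorly.

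A gene entered the fit of all 12 samples when it averaged at least 20 counts, which 13454 genes did. It was called when edgeR's quasi-likelihood test gave an unadjusted p below 0.05 and the fold change exceeded 2, the thresholds of the study's methods. LUM, BGN and PRELP passed this filter, with means of 34.6, 41.4 and 35.1 counts. DCN (3.92), FMOD (2.50), OGN (0.583) and ASPN (0.333) did not, and are given as counts. Each of the 3 that passed did so largely through the groups in which it was high.

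LUM encodes lumican, a keratan sulfate proteoglycan that orders collagen fibrils in the cornea. It was measured at 8.99 and 15.4 CPM in WT NPCs and at 59.1 and 60.5 CPM in dKO NPCs at passage 2. Both dKO samples were above both WT samples. The log2 fold change was 2.21 ± 0.29 (SE, n = 2 per group), and LUM was the only one of the 3 fitted genes past the thresholds there. Over all tested genes, 2.59% were called higher and 1.83% lower in that comparison. In dKO NPCs at passage 2, 67.6% of the tested genes had a lower level than LUM, against 22.7% in WT NPCs.

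At passage 4 LUM lay at 7.92 and 8.12 CPM in WT and at 12.7 and 14.2 CPM in dKO NPCs. The samples did not overlap, but the log2 fold change of 0.75 ± 0.27 was under the fold threshold. At day 28 LUM lay at 0.474 and 0.993 CPM in WT and at 3.58 and 3.99 CPM in dKO, which is 4 and 10 counts against 15 and 21. This log2 fold change was 2.29 ± 0.39 and was called higher. It was 2.92 without the second WT-D28 sample. The knockout effect on LUM differed by 0.08 ± 0.33 between day 28 and passage 2. Between passage 4 and passage 2 it was smaller by 1.47 ± 0.41 on the log2 scale, which was called lower.

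Along the cultures LUM was lower at later stages in both genotypes. From passage 2 to day 28 its log2 fold change was -4.04 ± 0.42 in WT and -3.97 ± 0.27 in dKO cells, both called lower. The WT value was -4.66 without the second WT-D28 sample. From passage 2 to passage 4 it was -0.68 ± 0.34 in WT, not called, and -2.15 ± 0.24 in dKO, called lower. Ordered by group mean, LUM was lowest in WT-D28 cells (0.733 ± 0.367 CPM, SD), then dKO-D28 cells (3.78 ± 0.292), WT NPCs at passage 4 (8.02 ± 0.143), WT NPCs at passage 2 (12.2 ± 4.53), dKO NPCs at passage 4 (13.5 ± 1.11) and dKO NPCs at passage 2 (59.8 ± 1.03). WT NPCs at passage 2 and dKO NPCs at passage 4 were neighbours that overlapped. These comparisons share groups with each other, so they are not independent.

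**Figure D1:**
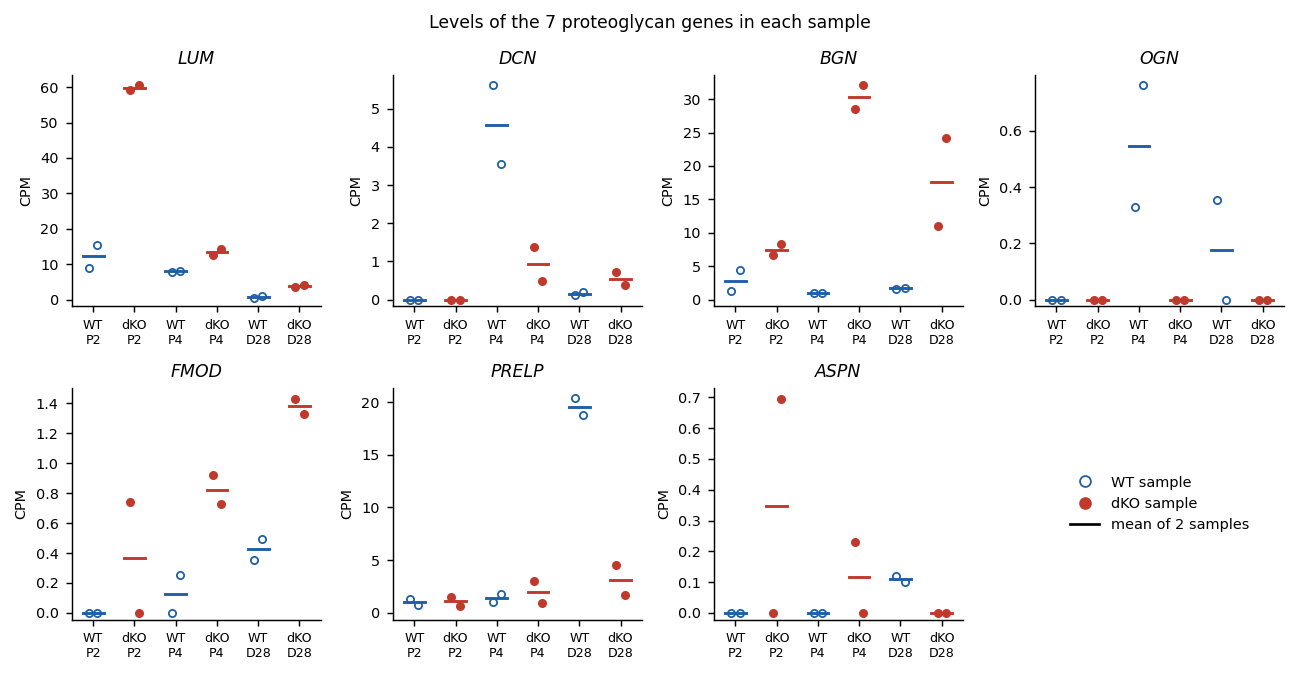
Levels of the 7 genes in CPM (vertical axes, each panel on its own scale) in WT (open) and dKO (filled) samples at passage 2 (P2), passage 4 (P4) and day 28 (D28), with the mean of each pair as a line. LUM is highest in dKO NPCs at passage 2, BGN in dKO NPCs at passage 4 and PRELP in WT-D28 cells.

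BGN encodes biglycan, which binds collagen and TGF-beta and, once released from the matrix, acts on Toll-like receptors. At passage 2 the WT NPCs had 1.28 and 4.40 CPM, and the dKO NPCs had 6.65 and 8.35 CPM, from 1 to 12 counts per sample. The groups did not overlap, but the log2 fold change of 1.21 ± 0.68 was not called. Over the alternatives it ran from 0.77 without the first WT NPC sample at passage 2 to 2.52 without the second. It was called, among others, without either dKO-D28 sample, at 1.20 in both cases, since all groups share 1 estimate of the spread. At passage 4 BGN lay at 0.990 and 1.02 CPM in WT, which is 3 and 4 counts, and at 28.6 and 32.1 CPM in dKO NPCs, which is 124 and 133 counts. This was the widest separation among the 3 fitted genes, with a log2 fold change of 4.88 ± 0.46. BGN was the 1 fitted gene called at passage 4, where 11.1% of all tested genes were called higher and 11.2% lower.

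At day 28 BGN lay at 1.66 and 1.79 CPM in WT and at 11.0 and 24.1 CPM in dKO cells. The lower of the 2 dKO samples was still well above both WT samples. The log2 fold change was 3.35 ± 0.36, called higher, and 2.65 without the second dKO-D28 sample, which held 127 of the 173 dKO counts. With GC content and length corrected for, it was 4.16. All 3 fitted genes were called in this comparison, LUM and BGN higher and PRELP lower, where 12.4% of all tested genes were called higher and 11.7% lower.

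The knockout effect on BGN was larger by 3.67 ± 1.00 on the log2 scale at passage 4 than at passage 2, and larger by 2.14 ± 0.86 at day 28 than at passage 2. Both differences were called, and both depend on the 7 counts of WT NPCs at passage 2. Without the second of those WT samples they were 2.36 and 0.83, and neither was called. At day 28 the call was also lost without the first dKO NPC sample at passage 2 (1.99) or without the second dKO-D28 sample (1.45). In the difference at day 28, 1 of the 3 fitted genes was called, beside 12% of all tested genes higher and 11.1% lower. In the difference at passage 4, LUM and BGN were called in opposite directions, beside 9.72% of all tested genes higher and 9.57% lower.

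From passage 2 to passage 4 its log2 fold change was -1.66 ± 0.86 in WT and 2.01 ± 0.39 in dKO NPCs, and only the latter was called. The WT value was called without the first WT NPC sample at passage 2 (-2.11) or without either dKO-D28 sample (-1.67 in both cases). None of the 3 fitted genes was called in WT NPCs between these passages, where 10.3% of all tested genes were called higher and 9.49% lower. In dKO NPCs LUM was called lower and BGN higher, beside 4.61% of all tested genes higher and 5.22% lower. From passage 2 to day 28 the BGN value was -0.90 ± 0.72 in WT and 1.24 ± 0.41 in dKO, the latter called. The WT value turned to 0.41 without the second WT NPC sample at passage 2, so its direction rests on that sample. The call in dKO was lost without the first dKO NPC sample at passage 2 (1.09) or without the second dKO-D28 sample (0.54). LUM and PRELP were the 2 genes called in WT, beside 12.9% of all tested genes higher and 11.5% lower, and LUM and BGN the 2 called in dKO, beside 4.01% higher and 3.14% lower.

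Ordered by group mean, BGN was lowest in WT NPCs at passage 4 (1.00 ± 0.0178 CPM, SD), followed by WT-D28 cells (1.72 ± 0.0918) and WT NPCs at passage 2 (2.84 ± 2.20), and these last 2 groups overlapped. The 3 dKO groups were all above the WT groups, at 7.50 ± 1.20 CPM at passage 2, 17.6 ± 9.30 CPM at day 28 and 30.4 ± 2.49 CPM at passage 4.

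PRELP encodes a proline- and arginine-rich repeat protein that joins collagen to basement membrane heparan sulfate. It lay between 0.696 and 3.0 CPM in all 8 NPC samples, from 1 to 13 counts each, and the 4 NPC groups overlapped. In WT-D28 cells it reached 18.8 and 20.4 CPM, which is 189 and 172 counts. In dKO-D28 cells it lay at 1.71 and 4.53 CPM, which is 9 and 19 counts, and overlapped both NPC groups at passage 4. WT-D28 cells were above every other group.

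The log2 fold change of PRELP between dKO-D28 and WT-D28 cells was -2.69 ± 0.37, called lower. It was -3.49 without the first dKO-D28 sample and -2.10 without the second. From passage 2 to day 28 it was 4.34 ± 0.70 in WT, called higher, and 1.46 ± 0.85 in dKO, not called. The dKO value was 2.04, and called, without the second dKO-D28 sample. Between dKO and WT NPCs it was 0.19 ± 1.38 at passage 2 and 0.48 ± 0.64 at passage 4. The knockout effect at day 28 minus that at passage 2 was -2.88 ± 1.48 and was not called, with only 1 or 2 PRELP counts in each passage 2 sample. It was -3.68, and called, without the first dKO-D28 sample.

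**Figure D2:**
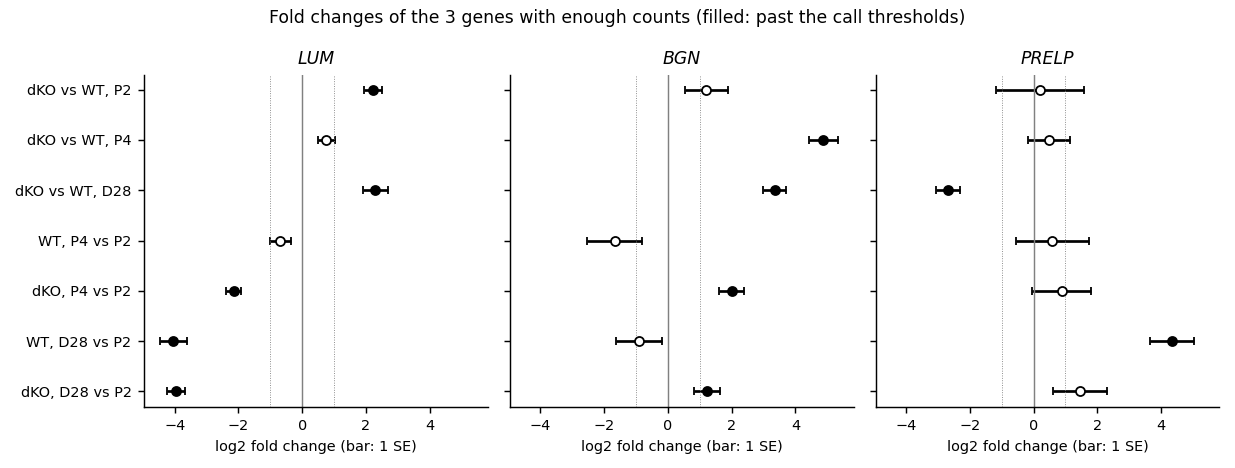
log2 fold changes (horizontal axis, bars of 1 SE, n = 2 samples per group) of LUM, BGN and PRELP in 7 comparisons, with filled points past the call thresholds and dotted lines at a fold change of 2. LUM and BGN lie to the right in dKO against WT cells at day 28 and PRELP lies to the left.

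DCN encodes decorin, the proteoglycan best known for binding collagen I and sequestering TGF-beta. It had 0 counts in all 4 samples at passage 2, which allows up to 1.40 CPM in the WT group and 1.07 CPM in the dKO group at 3 counts over the group. In WT NPCs at passage 4 it had 17 and 14 counts, or 5.61 and 3.55 CPM. In dKO NPCs at passage 4 it had 6 and 2 counts, or 1.38 and 0.483 CPM. The WT samples at passage 4 were above every other sample. Over the pair their level was 3.18 times the limit of 3 counts in WT NPCs at passage 2. Such ratios to a limit leave out the counting error of the higher group, so they are not lower bounds. The group intervals of DCN (95%, exact Poisson on summed counts) were 3.02 to 6.31 CPM in WT and 0.407 to 1.86 CPM in dKO NPCs at passage 4. At day 28 DCN had 1 to 3 counts in each sample. DCN and its neighbour LUM thus differed in direction at passage 4, DCN being lower and LUM higher in dKO than in WT samples.

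FMOD encodes fibromodulin, which shares its collagen binding site with lumican. It had 0 to 1 count in every sample at passage 2 and in WT NPCs at passage 4. In dKO NPCs at passage 4 it had 4 and 3 counts, and at day 28 it had 3 and 5 counts in WT and 6 and 7 in dKO cells. The dKO-D28 samples, at 1.43 and 1.33 CPM, were above the WT-D28 samples at 0.355 and 0.497 CPM. The group intervals overlapped, at 0.732 to 2.35 and 0.187 to 0.851 CPM.

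OGN, which encodes osteoglycin, had 1 and 3 counts in the WT NPC pair at passage 4. It had 3 and 0 counts in the WT-D28 pair, and 0 in all 6 dKO samples and in the WT NPC pair at passage 2. Over the pair, WT NPCs at passage 4 held 4 counts, 1.62 times the limit of 3 counts in dKO NPCs at passage 4 in CPM. The group intervals overlapped, at 0.156 to 1.47 CPM in WT and 0 to 0.435 CPM in dKO. ASPN, which encodes asporin, had at most 1 count in any sample and 4 counts in all. Neither gene can be said to be absent or to differ between groups at this depth.

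Summed over the 7 genes, WT NPCs had 11.6 and 20.5 CPM at passage 2, and dKO NPCs had 68.0 and 70.3 CPM. The WT samples at passage 4 had 15.8 and 15.5 CPM, against 46.8 and 48.5 CPM in the dKO samples. At day 28 the sums lay closer together, with 23.4 and 22.3 CPM for the WT pair against 21.2 and 31.5 CPM for the dKO pair, and the groups overlapped. The make-up of the sum differed between the genotypes at day 28. The sum takes no account of transcript length, which is 5769 bases for PRELP and 2353 for BGN. Per kb of the canonical transcript, PRELP averaged 3.39 CPM in WT-D28 and 0.541 CPM in dKO-D28 cells. BGN averaged 0.732 and 7.46 CPM per kb, and LUM 0.275 and 1.42. The overlap of the sums therefore does not show that the amount of transcript was alike.

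LUM supplied 75.0 to 87.0% of the counts of the 7 genes in the 4 samples at passage 2. At passage 4 WT NPCs held LUM (50 and 52.5%) and DCN (35.4 and 23.0%), whereas BGN made up 61.1 and 66.2% in dKO NPCs. In WT-D28 cells PRELP supplied 86.9 and 84.0%, with 95% exact binomial intervals of 81.4 to 91.2% and 78.5 to 88.5%. In dKO-D28 cells BGN supplied 51.7 and 76.5% and PRELP 21.3 and 5.42%. The leading gene by counts was therefore the same in both samples of each group and in both genotypes at passage 2, and differed between WT and dKO at passage 4 and at day 28. In the first WT NPC sample at passage 2 the share of LUM rests on 9 counts, with an interval of 40.0 to 97.2%. In the first WT NPC sample at passage 4 the intervals of LUM (35.2 to 64.8%) and DCN (22.2 to 50.5%) overlapped, so which of them led there is not settled.

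**Figure D3:**
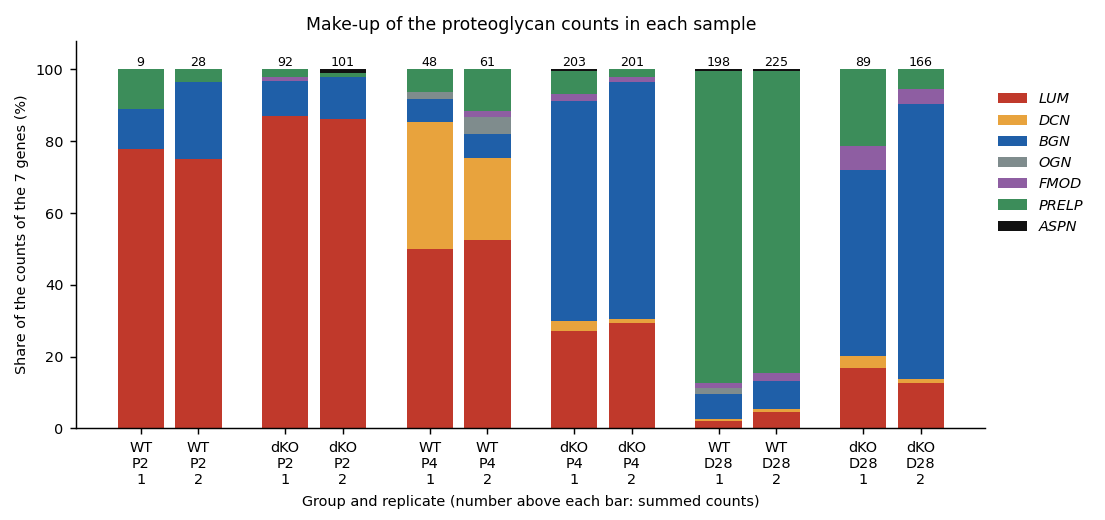
Share of the summed counts of the 7 genes (vertical axis, %) held by each gene in each of the 12 samples, with the summed count above each bar. LUM leads at passage 2 and in WT NPCs at passage 4, BGN leads in dKO NPCs at passage 4 and dKO-D28 cells, and PRELP leads in WT-D28 cells.

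Levels of different genes were compared per kb of the canonical transcript. The highest group mean of LUM was 22.4 CPM per kb in dKO NPCs at passage 2, that of BGN 12.9 CPM per kb in dKO NPCs at passage 4 and that of PRELP 3.39 CPM per kb in WT-D28 cells. DCN reached 0.669 CPM per kb in WT NPCs at passage 4, on a transcript of 6850 bases.

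Of 11 other genes of the family, TSKU, which encodes tsukushi, a secreted inhibitor of BMP and Wnt signalling, was the 1 past the filter. It lay between 31.7 and 50.5 CPM in all 12 samples and was called in none of the comparisons. In the difference between the knockout effects at passage 4 and passage 2 its log2 value was -0.58 ± 0.24 (adjusted p = 0.0949). It was thus the family gene with the most even level, at 12.9 to 18.7 CPM per kb in the 6 groups.

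The neighbours of the 7 genes had few counts. KERA, next to LUM and encoding keratocan, had 3 and 1 counts in dKO NPCs at passage 4, 1 and 9 in the dKO-D28 pair, 0 and 1 in the WT-D28 pair and 0 elsewhere, and EPYC had 0 counts in all samples. OPTC, next to PRELP, had 14 and 4 counts in dKO and 0 in WT NPCs at passage 4. Over the pair the dKO level was 4.93 times the limit of 3 counts in WT. At day 28 OPTC had 7 and 4 counts in WT and 16 and 5 in dKO cells, and in CPM its dKO samples (3.82 and 0.95) were above its WT samples (0.829 and 0.397), opposite to PRELP.

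ECM2, in the row of OGN and ASPN, had 12 and 10 counts in WT and 2 and 2 in dKO NPCs at passage 4, and 26 and 30 in WT-D28 against 1 and 2 in dKO-D28 cells. It had 0 counts in WT NPCs at passage 2. The level in WT-D28 cells was 2.16 times the limit of 3 counts there, and that in WT NPCs at passage 4 was 2.26 times. At passage 4 it was higher in both WT samples than in both dKO samples, as DCN was, while BGN was lower in both WT samples. OMD had 2 counts in 1 WT-D28 sample and 0 elsewhere. CHAD, CHADL, NYX, PODN and PODNL1 had group means of at most 3.55 CPM, and their exons share bases with genes on the other strand, which matters because the strand setting of the counting is not given in the sources used here.

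**Figure D4:**
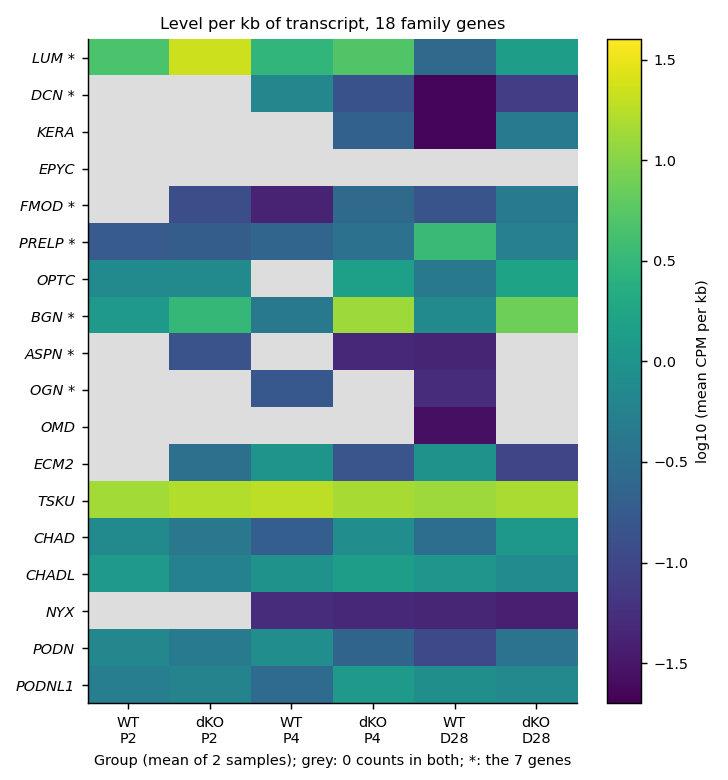
Mean CPM per kb of transcript on a log10 colour scale for 18 family genes (rows, in chromosomal rows where they are neighbours) in the 6 groups (columns, n = 2), with grey for 0 counts in both samples. TSKU is bright in every group, while LUM, BGN and PRELP are each brightest in a different group.

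Between 7 and 10 of the 12 tested collagens of the kinds these proteoglycans bind were called higher in dKO cells. Among these fibrillar and associated collagens, 7 were called higher and 0 lower at passage 2, 10 and 0 at passage 4, and 8 and 2 at day 28. Of all tested genes, 2.59%, 11.1% and 12.4% were called higher and 1.83%, 11.2% and 11.7% lower at these stages. The median log2 fold changes were 1.40, 1.99 and 1.5, beside 0.004, 0.02 and 0.003 over all tested genes. At passage 2, 3 of the 7 had a Benjamini-Hochberg adjusted p below 0.05. COL1A2, a chain of collagen I, lay at 32.1 to 67.4 CPM in WT and 158 to 215 CPM in dKO NPCs at passage 2 (log2 fold change 1.82 ± 0.22, adjusted p = 0.00124) and at 55.4 to 55.6 and 791 to 794 CPM at passage 4 (3.84 ± 0.19, adjusted p = 1.55e-09).

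COL2A1, the cartilage collagen, lay at 674 to 732 CPM in WT and 742 to 747 CPM in dKO NPCs at passage 2. In WT it was at 47.2 to 51.8 CPM at passage 4 and 6.39 to 8.14 CPM at day 28, whereas in dKO it was at 621 to 637 and 582 to 728 CPM. The day 28 difference was 6.48 ± 0.16 (adjusted p = 2.03e-13). COL14A1 was 1 of the 2 collagens called lower in dKO-D28 cells, at -2.83 ± 0.38 (adjusted p = 9.96e-06), and like PRELP it was highest in WT-D28 cells, at 10.3 to 11.0 CPM. From passage 2 to day 28, 2 collagens were called higher and 6 lower in WT cells and 0 and 6 in dKO cells. Of all tested genes, 12.9% were called higher and 11.5% lower in WT and 4.01% and 3.14% in dKO.

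Of 13 tested genes that process and cross-link collagen, 2, 9 and 3 were called higher in dKO at passage 2, passage 4 and day 28, and 0 lower in each, beside 2.59%, 11.1% and 12.4% higher over all tested genes, which were themselves called more often at the later stages. LOXL2, a lysyl oxidase that cross-links collagen, was higher by 1.14 ± 0.18, 3.85 ± 0.21 and 2.14 ± 0.17 at the 3 stages (adjusted p = 0.00307, 5.98e-10 and 3.93e-08). SERPINH1, the collagen chaperone HSP47, was higher by 1.94 ± 0.13 at passage 4 (adjusted p = 6.22e-09), and BMP1, the protease that matures procollagen and probiglycan, by 1.01 ± 0.15 (adjusted p = 2.91e-05). Of 10 elastic fibre and microfibril genes, 1, 6 and 6 were called higher and 0, 1 and 0 lower, beside the same shares. FBLN1, which encodes fibulin-1, was higher by 1.45 ± 0.18 at passage 2 (adjusted p = 0.00124), and EFEMP1 by 3.03 ± 0.24 at passage 4 and 3.19 ± 0.18 at day 28 (adjusted p = 3.79e-08 and 6.22e-10).

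Of 19 tested genes for enzymes that build the sugar chains, both the linker to the core protein and chondroitin and dermatan sulfate, 1 was called higher and 1 lower at passage 2, 3 and 2 at passage 4, and 3 and 3 at day 28, with medians of 0.31, 0.49 and 0.19. Over all tested genes 2.59%, 11.1% and 12.4% were called higher and 1.83%, 11.2% and 11.7% lower, so these few calls lay near the background and are no result about the enzymes as a list. XYLT1, which starts the linker, fell by 1.05 ± 0.22 at passage 2 (adjusted p = 0.0175). UST, which adds 2-O-sulfate to uronic acid, was higher by 3.91 ± 0.31 and CHST7 lower, at -3.54 ± 0.27, at day 28 (adjusted p = 3.14e-08 and 1.89e-08). Of 6 keratan sulfate genes, 0, 1 and 3 were called higher and 0, 3 and 1 lower. CHST1, the keratan sulfate sulfotransferase, lay at 23.2 to 23.3 CPM in WT-D28 and 1.90 to 2.62 CPM in dKO-D28 cells (log2 fold change -3.36 ± 0.33, adjusted p = 3.08e-07), while B4GALT1 was higher by 2.20 ± 0.19 (adjusted p = 1.15e-07).

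Genes of the TGF-beta pathway, whose ligands decorin and biglycan bind, were called higher in dKO cells in 6, 7 and 9 of 16 tested, with 0 called lower at any of the 3 stages, beside 2.59%, 11.1% and 12.4% higher and 1.83%, 11.2% and 11.7% lower over all tested genes. The medians were 0.77, 0.82 and 1.06. The ligand TGFB2 was higher by 1.53 ± 0.29 at passage 2 (adjusted p = 0.0158), the latent TGF-beta binding protein LTBP2 by 3.08 ± 0.28 at passage 4 (adjusted p = 4.45e-07), and the receptor TGFBR2 and the transducer SMAD3 by 3.80 ± 0.32 and 2.72 ± 0.14 at day 28 (adjusted p = 6.38e-08 and 3.90e-10).

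Of 7 tested cell surface receptors that bind decorin or biglycan, 1, 2 and 2 were called higher and 0, 1 and 1 lower. With 2.59%, 11.1% and 12.4% of all tested genes called higher and 1.83%, 11.2% and 11.7% lower, counts this small are not read as a result about the list. KDR, the VEGF receptor, lay at 1.98 to 3.81 CPM in WT and 79.3 to 85.5 CPM in dKO NPCs at passage 4 (log2 fold change 4.77 ± 0.24, adjusted p = 2.49e-10). CD44 was lower in dKO NPCs at passage 4, at -2.36 ± 0.19 (adjusted p = 4.68e-08). The 3 tested proteases that cleave these proteoglycans, MMP2, MMP14 and MMP9, were called higher at passage 4 and at day 28 and not at passage 2. MMP2 was higher by 2.28 ± 0.19 and 2.00 ± 0.20 (adjusted p = 4.87e-07 and 1.76e-06).

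The genes most like each fitted proteoglycan were found by Pearson's r of log2 CPM over the 12 samples, which share group structure and depth. For LUM these were CALD1 (r = 0.981), which encodes the actin-binding caldesmon, TUBB6 (0.963), a beta-tubulin, and ITGAV (0.961), the integrin alpha V chain. For BGN they were COL4A6 (0.985), a basement membrane collagen, SLC7A8 (0.977), an amino acid transporter, and the pseudogene HTR7P1 (0.973). For PRELP they were VPS37D (0.955), KCNF1 (0.948), a potassium channel subunit, and MAPK3 (0.947), the kinase ERK1. Among the 3 themselves r was 0.31 for LUM and BGN, -0.82 for LUM and PRELP and -0.24 for BGN and PRELP.

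CALD1 averaged 638 CPM in dKO and 269 CPM in WT NPCs at passage 2 and 88.3 CPM in WT-D28 cells, the same extremes as LUM. COL4A6 averaged 543 CPM in dKO and 72.2 CPM in WT NPCs at passage 4, the same extremes as BGN. KCNF1 averaged 22.7 CPM in WT-D28 cells and at most 5.38 CPM in the other groups.

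Markers of cells that could supply these RNAs were measured beside them. In bulk RNA, fewer cells of a type and less RNA per cell cannot be told apart. Of 6 neural progenitor markers, 5 or 6 had more than 3 counts in each of the 6 groups, so detection did not set NPCs apart. They summed to 2360 to 2444 CPM in WT and 2473 to 2573 CPM in dKO NPCs at passage 2. The sums were 3319 to 3375 and 1265 to 1271 CPM at passage 4, and 1878 to 1909 and 1400 to 1440 CPM at day 28. WT NPCs at passage 4 thus had the highest progenitor sum. The sum is weighted to the markers with high levels. From passage 2 to passage 4 in WT the median log2 fold change of the 5 tested progenitor markers was -0.15, beside 0.014 over all tested genes. Neuron and astrocyte markers of WT NPCs at passage 4, given with PRELP and DCN, also summed to more than those of WT-D28 cells. Of 5 pluripotency markers, POU5F1 and NANOG were at 0 in all groups, but the list summed to 113 to 128 CPM in WT and 89.1 to 104 CPM in dKO NPCs at passage 2, to 1.27 to 1.65 and 33.9 to 37.2 CPM at passage 4 and to 0.596 to 0.947 and 45.6 to 85.1 CPM at day 28. LIN28A, an RNA-binding protein also made by early neural progenitors, supplied most of these sums in dKO, with 30.9 to 33.3 CPM at passage 4 and 31.7 to 79.0 CPM at day 28. Pericyte and smooth muscle markers summed to 397 to 732 CPM in WT and 1230 to 1483 CPM in dKO NPCs at passage 2, with 8 of 10 above 3 counts in each and ANPEP and MYH11 at 0. They summed to 249 to 261 and 700 to 710 CPM at passage 4 and to 180 to 181 and 487 to 656 CPM at day 28. Of 7 tested, 3, 6 and 4 were called higher and 0, 1 and 1 lower at the 3 stages. Over all tested genes 2.59%, 11.1% and 12.4% were called higher and 1.83%, 11.2% and 11.7% lower, so 1 call lower lay near the background. The gene called lower was ABCC9, at passage 4 (26.1 to 32.2 CPM in WT and 0.242 to 0.692 CPM in dKO NPCs) and at day 28 (3.32 to 3.77 against 0 to 0.239 CPM).

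Fibroblast and mesenchymal markers summed to 3687 to 3921 CPM in WT and 4334 to 4908 CPM in dKO NPCs at passage 2, with 7 of 10 above 3 counts and TWIST2 at 0 in both. At passage 4 they summed to 4146 to 4172 CPM in WT and 4023 to 4056 CPM in dKO NPCs. At day 28 the sums were 2659 to 2685 CPM in WT and 1863 to 2724 CPM in dKO cells, which overlapped. Of 5 tested, 2, 1 and 1 were called higher and 0, 1 and 2 lower in dKO at the 3 stages. Over all tested genes 2.59%, 11.1% and 12.4% were called higher and 1.83%, 11.2% and 11.7% lower. Counts this small are not read as a result about the list. The list included VIM, which the study used as an NPC marker, so its sum does not single out fibroblasts. At passage 4 PDGFRA was higher (1.02 to 1.65 CPM in WT and 9.22 to 11.4 CPM in dKO) and THY1 lower (47.0 to 55.1 against 7.73 to 9.45 CPM). Both changes were small beside the sum. Meningeal markers summed to 23.4 to 31.0 CPM in WT and 270 to 333 CPM in dKO NPCs at passage 4, with 3 and 6 of 7 above 3 counts, and to 92.6 to 102 and 240 to 288 CPM at day 28. Neural crest markers summed to 10.2 to 10.7 and 76.8 to 78.5 CPM at passage 4, and to 28.4 to 124 CPM over the 2 dKO-D28 samples. Endothelial markers, a list that includes KDR, summed to 4.95 to 5.58 CPM in WT and 92.9 to 96.1 CPM in dKO NPCs at passage 4, and to 3.58 to 4.14 and 19.2 to 26.0 CPM at day 28. Choroid plexus markers summed to 2.54 to 4.29 and 21.2 to 22.7 CPM at passage 4, and cartilage and bone markers to 234 to 299 CPM in WT and 151 to 159 CPM in dKO NPCs. Of the 8 cartilage and bone markers only 1 passed the filter. Its log2 fold change of -0.89 at passage 4 was not called, so that sum is not read as a result about the list. Only 2 of 7 meningeal, 1 of 6 endothelial (KDR) and 1 of 6 choroid plexus markers passed the filter. Their sums are likewise not read as results about those lists. The part of these cells in the levels of LUM and BGN was not tested.

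Markers of neurons and astrocytes were higher in the WT groups in which PRELP (day 28) and DCN (passage 4) exceeded their levels in dKO. Neuron markers summed to 3357 to 3366 CPM in WT-D28 and 522 to 944 CPM in dKO-D28 cells, and astrocyte markers to 412 to 414 and 32.7 to 38.2 CPM. In WT NPCs at passage 4, where DCN and ECM2 were higher than in dKO NPCs, neuron markers summed to 3928 to 4446 CPM and astrocyte markers to 1995 to 2208 CPM, against 707 to 728 and 33.2 to 40.3 CPM in dKO NPCs. PRELP was not high there, at 0.990 and 1.78 CPM, and DCN was not high in WT-D28 cells, at 0.118 and 0.199 CPM against 0.380 and 0.715 CPM in dKO-D28 cells. The part of these cells in the levels of PRELP and DCN was not tested.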

How the data were processed

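RNA-seq was analysed in 12 samples of H1 derivatives, 2 in each of 6 groups read from the labels. The authors prepared TruSeq libraries from TRIzol RNA, aligned reads to hg38 with HISAT2 2.0.4 and SAMtools 1.3.1 and counted them with htseq-count 0.6.0. The deposited values are raw counts per Ensembl gene. The annotation release and the strand setting are not given in the sources used here. Of the 58302 IDs, 98.7% were found in GENCODE v44, which gave symbols, coordinates and lengths. Counts were fitted in R 4.3.3 with edgeR 4.0.16 (TMM, robust quasi-likelihood test, 6 group means over all samples, genes averaging at least 20 counts), with Benjamini-Hochberg adjustment over the 13454 genes tested. SEs were the absolute log2 fold change over the square root of F. The fit was tested on simulated counts with known changes. No 2 samples held identical counts. The 7 genes, the gene lists and the marker lists were chosen with earlier results of these data known. Named genes were the family, up to 4 called genes with the smallest p per list and comparison, the 3 genes most correlated with each fitted member, and KDM6A and KDM6B. Alternatives were DESeq2 1.42.0, adjusted calls, only the samples compared, 2 other filters, offsets for GC content and length, a replicate block and leaving out each sample. Promoters came from RefSeq (GRCh38.p14), with 5 of the 7 genes matched.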

Additional observations from a re-analysis of the deposited data

Results flagged for a closer look

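The change of BGN from passage 2 to passage 4 went in opposite directions in the 2 genotypes. The log2 ratio of group means in CPM was -1.5 in WT and 2.02 in dKO NPCs, a difference of 3.52, with each sample of a passage 4 group on one side of both passage 2 samples. The opposite directions themselves were not tested, since BGN was one of the genes chosen from these data, and the WT passage 2 samples held 1 and 6 counts.

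TSKU showed 3 sign changes of small size. Its log2 ratio of dKO to WT was 0.235 at passage 2 and -0.350 at passage 4, a difference of -0.585, and 0.217 at day 28, a difference of 0.567 from passage 4. Its log2 ratio of passage 4 to passage 2 was 0.428 in WT and -0.157 in dKO, a difference of -0.585. These opposite directions were not tested as such, and the fitted knockout effect of TSKU at passage 4 minus that at passage 2 had an adjusted p of 0.0949 in edgeR's quasi-likelihood test. No outlier check applied, because each group held 2 samples.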

How the results depend on the processing

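No fold change of LUM, BGN or PRELP that was called changed its sign under any alternative that could be run. BGN between WT-D28 cells and WT NPCs, not called, ranged from -1.61 to 0.41. Of the recomputed log2 fold changes of single genes, 434 stayed within 1 SE of the reported value and 25 moved further. With at least 1 count in any sample as the filter, 2 of the 7 genes were called in place of 1 at passage 2 (LUM and BGN), 2 in place of 1 at passage 4 (BGN and DCN), 2 in place of 0 between WT passages (BGN and DCN) and 2 in place of 1 for the knockout effect at day 28 minus passage 2 (BGN and PRELP). Of all genes tested under that filter 3.36%, 14.7%, 12.8% and 12.2% were called in these comparisons, in either direction. With the GC content and gene length correction BGN also passed at passage 2 and PRELP in the day 28 difference, making 2 genes in each, beside 4.52% and 22.3% of all genes. With adjusted calls, BGN was lost between dKO-D28 cells and dKO NPCs (1 gene left) and in the day 28 difference (0 left), beside 5.0% and 20.2% of all genes. Leaving out 1 sample left 1 group with 1 sample and also shifted the share called over all genes. The number of the 7 genes called is therefore not given for those fits. Some calls did depend on the sample left out, as given above for BGN and PRELP. Deviations of samples with the same replicate number had r of -0.055 to 0.182 over 15 pairs of groups. The highest value was that of WT with dKO NPCs at passage 4. Counting error pulls such r toward no correlation, so this check cannot tell whether the numbers pair the samples. A replicate block raised the count to 2 at passage 2 and to 1 between WT passages, BGN being the added gene in both, beside 4.57% and 19.8% of all genes, and changed no other count. With at least 10 counts in every sample none of the 7 genes was left to test. Depth limits DCN, FMOD, OGN and ASPN to counts, and BGN and PRELP at passage 2 to 1 to 12 counts per sample.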
